A study of Mus musculus with 14 samples.

Results

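The comparison set cells exposed for 24 h to 2 treatments at once, activation of an Ikaros fusion protein and withdrawal of interleukin 7 (IL-7), against cells that received neither. Its members are 4 of the 14 arrays of the series, chosen by their titles: 2 arrays labelled 24h, -IL-7, +4OHT and 2 labelled 24h, +IL-7, -4OHT, each pair with 1 array from each of 2 independent experiments. All arrays hold RNA of 1 Ikaros-deficient pre-B line of the mouse, called BH1-Bcl2-Ik1ER. The line was transduced with a retrovirus for Bcl2, which blocks apoptosis, and with another for Ikaros fused to the estrogen receptor, and cells that had taken up both were sorted. Every group therefore carried Bcl2 and the fusion, and the groups differed only in the treatments. The fusion was switched on with 4-hydroxytamoxifen (4OHT) at 100 nM, and IL-7 was supplied as 8% conditioned medium of J558L cells or left out. The 24 h arrays with 4OHT and IL-7 (4OHT alone) and with neither 4OHT nor IL-7 (withdrawal alone), 2 arrays each, served to place the combined change. Every culture carried the fusion, and therefore what 4OHT does by itself and what Ikaros activity does cannot be told apart.

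Ikaros, encoded by Ikzf1, is a zinc finger protein that binds DNA in lymphoid cells and acts with chromatin remodelling complexes, mainly on gene repression but also on activation. In bone marrow, IL-7 signals through its receptor, JAK kinases and STAT5 and keeps early B cell precursors dividing, with Myc and cyclin D2 among the genes that respond. When large pre-B cells leave the IL-7 niche they stop dividing, become small pre-B cells, raise factors such as Foxo1 and Bcl6, and rearrange their light chain genes. Ikaros is known as a tumour suppressor of the pre-B stage that promotes this exit.

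Values are log2 levels after robust multi-array averaging (RMA), so a difference of 1 is a 2-fold change, and each level is comparable between arrays but not between genes. In all, 19938 genes with a probe set of their own were tested. Over the 14 arrays the median level lay between 7.23 and 7.43, correlations over genes within a group ran from 0.9968 to 0.9982, and the median over all values was 7.33. The median standard error (SE) of a change was 0.091, and the number of arrays limits the precision. Of the pre-B cell markers measured, Cd79a, Cd79b, Igll1, Pax5, Ebf1, Cd24a and Il7r lay between 11.73 and 13.78 on the arrays compared, Vpreb1 between 9.79 and 10.96, and Ighm, the heavy chain gene, between 7.20 and 7.50, near that median. Ikzf1 read 13.31 and 13.38 with both treatments and 13.02 and 13.06 with neither (0.30 ± 0.07, adjusted p = 0.00473). Whether its probes read the endogenous transcript, the fusion or both is not known, so it does not check the labels. Bcl2, which the retrovirus also carries, read 8.41 and 8.56 against 8.32 and 8.32 and did not pass the test (adjusted p = 0.0957).

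With both treatments the cells held much less RNA of genes for growth, nucleotide synthesis and DNA replication and more RNA of FoxO and growth arrest genes, of pre-B receptor signalling genes and of many B lineage factors. Spib, an Ets family factor of B cells, changed by 2.97 ± 0.10 and Myc, the growth regulator, by -3.50 ± 0.11 (log2 ± SE, 2 arrays a group, here and throughout). In limma's test at an adjusted p under 0.05, 6690 of the 19938 genes passed (33.6%), 3614 of them higher (18.1%) and 3076 lower (15.4%). Among these genes large changes were mostly falls: 800 fell at least 2-fold (4.01%) and 461 rose at least 2-fold (2.31%). At least 4-fold 150 fell and 46 rose, and at least 8-fold 10 fell and 5 rose. Among the 13767 probe sets with no or several gene symbols the balance was the opposite, with 974 higher and 161 lower at least 2-fold. The quartiles of the change over all genes were -0.14 and 0.15. In every passing gene the change had the same sign in both experiments and the groups did not overlap, which selection by p largely ensures. Groups did not overlap in 11380 of all 19938 genes. A block for the experiment gave 7850 genes (39.4%). After renewed quantile normalization 7723 genes passed, and 42.9% of the calls were then higher in place of 54.0%.

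Set against the single treatments, the combination differed from 4OHT alone in 4846 genes (24.3%), 2552 higher (12.8%) and 2294 lower (11.5%), and from withdrawal alone in 3045 genes (15.3%), 1416 higher (7.10%) and 1629 lower (8.17%). With the experiment as a block 2184 genes were higher than with withdrawal alone. Leaving out an array of 4OHT alone left 1595 (experiment 1) or 1615 (experiment 2) genes higher than with 4OHT alone. Leaving out an array of withdrawal alone left 1841 (experiment 1) or 2006 (experiment 2) genes that differed from it. Of these 753 and 961 were higher and 1088 and 1045 lower, and 908 were higher without the experiment 1 array of both treatments.

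**Figure D1:**
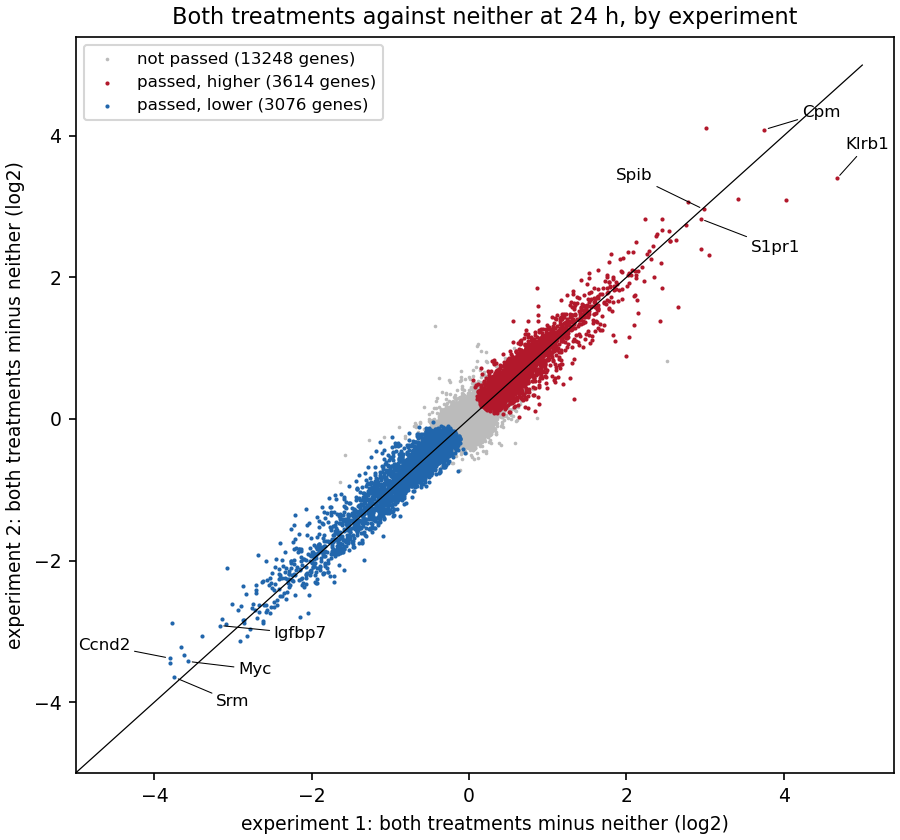
Change of each of the 19938 genes between both treatments and neither at 24 h, in log2 units, in experiment 1 (x axis) and experiment 2 (y axis), with the diagonal of equal change. Red points are the 3614 genes that passed higher, blue points the 3076 that passed lower and grey points the others. Myc and Srm lie close to the diagonal and Klrb1 lies off it, at 4.68 and 3.40.

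The 12 largest rises of genes above the median level were Klrb1, Cpm, Eqtn, Ifi209, Spib, Sp100, S1pr1, Ralgps2, Asb2, Rubcnl, Siglecg and Serinc5, genes of differing roles. S1pr1, a receptor for the lipid sphingosine 1-phosphate that guides lymphocytes out of tissues, read 9.64 and 9.48 with both treatments and 6.69 and 6.66 with neither, a rise of 2.89 ± 0.13 (adjusted p = 3.05e-08). Siglecg, an inhibitory sialic acid receptor of B cells, read 11.53 and 11.73 against 8.99 and 9.07 and rose by 2.60 ± 0.18 (adjusted p = 5.47e-07). Spib read 12.66 and 12.65 against 9.68 and 9.69 (adjusted p = 4.69e-09). In each of these the arrays of a group lay close together and far from those of the other group. The membrane carboxypeptidase gene Cpm rose by 3.92 ± 0.24, from 8.78 and 8.10 to 12.54 and 12.19. Rubcnl, a gene of the autophagy pathway, rose by 2.64 ± 0.11, from 8.06 and 7.71 to 10.51 and 10.53. Serinc5, which encodes a membrane protein known to restrict retroviruses, rose by 2.58 ± 0.17, from 8.48 and 8.33 to 11.11 and 10.86.

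For some of the other leading rises the experiments lay further apart. Klrb1, a lectin-like receptor gene of a family known from natural killer cells, read 11.22 and 9.88 with both treatments and 6.54 and 6.48 with neither (4.04 ± 0.46, adjusted p = 2.33e-05). With both treatments its array of experiment 1 lay above that of experiment 2, and its change was 4.68 in experiment 1 and 3.40 in experiment 2. Eqtn, a gene known from sperm, read 8.79 and 7.89 against 4.77 and 4.80 (3.56 ± 0.33), with the array of experiment 1 again higher. Asb2, a subunit of a ubiquitin ligase, read 11.43 and 10.87 against 8.48 and 8.47 (2.67 ± 0.29). For Sp100, a nuclear body gene induced by interferon, the order of the experiments was the opposite, 8.98 and 9.67 against 6.20 and 6.60 (2.93 ± 0.32). Ifi209, of the interferon-inducible Ifi200 family, and Ralgps2, an exchange factor for Ral GTPases, rose by 3.26 ± 0.20 and 2.75 ± 0.14. Klrb1 and Ifi209 belong to families of similar genes, and whether their probes tell the members apart was not tested.

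Side by side with the single treatments, the 12 genes had changes of 1.62 (Asb2) to 3.12 (Cpm) under 4OHT alone and of 0.03 (Eqtn) to 1.05 (Cpm) under withdrawal alone. These comparisons share arrays with the combined one. Spib rose by 2.51 under 4OHT alone (adjusted p = 6.76e-08) and by 0.91 under withdrawal alone (adjusted p = 6.26e-05). S1pr1 rose by 2.05 under 4OHT alone and had a change of 0.34 that did not pass under withdrawal alone. Against 4OHT alone the combination was higher by 0.84 ± 0.13 for S1pr1 (adjusted p = 0.000644) and by 0.47 ± 0.10 for Spib (adjusted p = 0.00412). For Siglecg that difference was 0.53 ± 0.18 and did not pass (adjusted p = 0.0569).

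**Figure D2:**
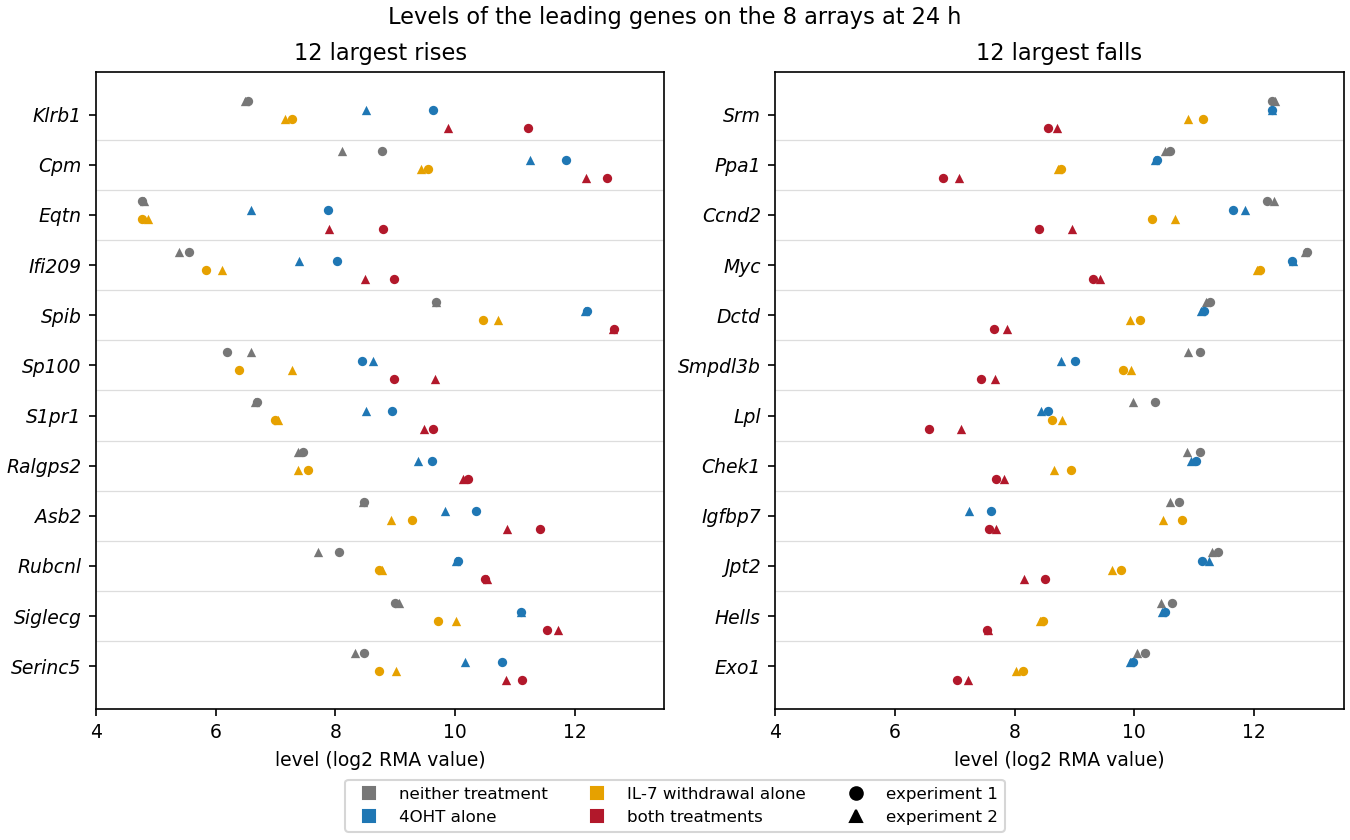
Log2 level (x axis) of the 12 largest rises (left) and 12 largest falls (right) on the 8 arrays at 24 h, with circles for experiment 1 and triangles for experiment 2 and colours for the 4 groups. For Spib the arrays with 4OHT alone lie near those with both treatments, and for Srm the arrays with 4OHT alone lie with those of neither treatment.

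The 12 largest falls were led by genes of growth and division. Srm, which makes spermidine, read 8.55 and 8.71 with both treatments and 12.30 and 12.36 with neither, a fall to 13.0-fold lower levels (-3.70 ± 0.15, adjusted p = 1.36e-08). Myc read 9.31 and 9.43 against 12.88 and 12.86 and fell 11.3-fold (adjusted p = 4.69e-09). Ccnd2, cyclin D2, which drives entry into the cell cycle, read 8.40 and 8.96 against 12.21 and 12.34 (-3.59 ± 0.19, adjusted p = 7.87e-08). The groups were apart by more than 3 log2 units in all 3 genes. Ppa1, an inorganic pyrophosphatase, fell by 3.63 ± 0.19 and Dctd, deoxycytidylate deaminase, fell by 3.47 ± 0.12. Chek1, the checkpoint kinase of replication stress, read 7.69 and 7.82 against 11.09 and 10.88 (-3.23 ± 0.20). Hells, a chromatin remodeller of dividing cells, and Exo1, a repair exonuclease, changed by -2.99 ± 0.15 and -2.99 ± 0.18, and Jpt2 by -3.02 ± 0.20.

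Of the 12 falls, Igfbp7, Smpdl3b and Lpl also fell under 4OHT alone. Igfbp7, a secreted binding protein of insulin-like growth factors, read 7.58 and 7.68 with both treatments and 10.75 and 10.60 with neither. It changed by -3.26 ± 0.18 under 4OHT alone (adjusted p = 7.53e-07) and by -0.03 under withdrawal alone (adjusted p = 0.944). Smpdl3b, a lipid phosphodiesterase of the membrane, changed by -3.44 ± 0.11 with both treatments, -2.10 with 4OHT alone and -1.12 with withdrawal alone. Lpl, lipoprotein lipase, changed by -3.33 ± 0.16, -1.67 and -1.46 in the same order. Chek1, by contrast, changed by 0.00 under 4OHT alone (adjusted p = 0.999) and by -2.19 under withdrawal alone (adjusted p = 2.58e-05).

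Genes were then read in lists by role. The lists were drawn up with earlier results of these data known, and some genes belong to several lists. Each count is to be read against the share over all genes. For the combination this was 18.1% higher and 15.4% lower, for 4OHT alone 5.22% and 3.94% (9.16% in all) and for withdrawal alone 11.2% and 8.78%. That share includes dim genes. Of the 10816 genes above the median of all values in either group compared, 6564 passed, 3570 higher and 2994 lower. Many lists hold few dim genes, so the share over all genes is a low baseline for them. Above that median lay 28 of 29 B lineage factors and 13 of 14 BCL2 family genes. In the lists with 0 genes past limma's adjusted threshold in a direction for the combination, 0 also passed an unadjusted p under 0.05 there, unless stated. Fewer cells of a type, such as fewer dividing cells, and less RNA per cell cannot be told apart in these bulk samples.

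**Figure D3:**
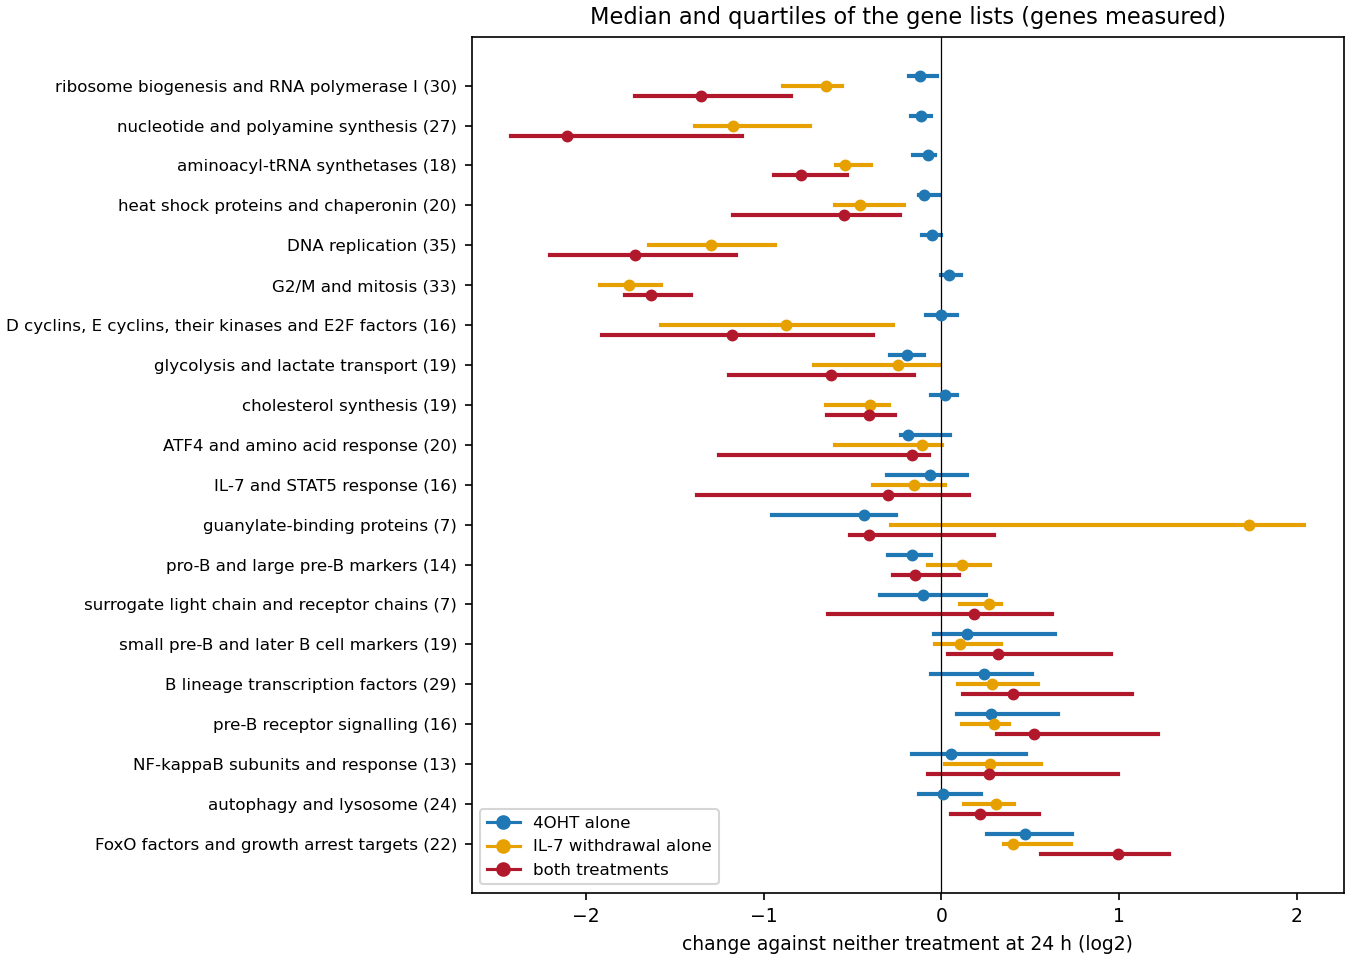
Median (point) and quartiles (line) of the log2 change against neither treatment at 24 h for the measured genes of 20 lists, for 4OHT alone (blue), withdrawal alone (yellow) and both treatments (red), with the number of genes in parentheses. The medians of DNA replication are -0.05, -1.30 and -1.73, and those of the FoxO list 0.47, 0.40 and 1.0. The glycolysis list includes Pigq, matched by a shared name, which is not a glycolysis gene.

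Most genes for the IL-7 receptor and the kinases and STAT factors below it rose, by less than 1 log2 unit. Of 9 measured genes 6 rose and 2 fell, with a median change of 0.32. The 2 STAT5 genes went opposite ways. Over the alternatives Stat5b changed by 0.29 to 0.49 and Stat5a by -0.37 to -0.22, and the calls of both depended on single arrays. The fall of Stat5a by 0.29 also did not pass limma's test with only the 4 arrays compared (adjusted p = 0.0657). Il2rg and Jak3 had no probe set of their own. Il7r, the receptor chain itself, read 13.24 and 13.25 against 12.90 and 12.84 (0.37 ± 0.09, adjusted p = 0.00494), and Stat3 rose by 0.85 ± 0.08 from 10.42 and 10.25 to 11.24 and 11.13. Of the genes known to respond to IL-7 and STAT5, 9 of 16 fell and 4 rose, with a median change of -0.30. Cish, a feedback inhibitor induced by STAT5, read 7.55 and 7.51 with both treatments and 9.52 and 9.58 with neither (-2.03 ± 0.08, adjusted p = 1.4e-08). It changed by -0.88 under 4OHT alone and -1.36 under withdrawal alone. Socs2, another inhibitor of cytokine signalling, read 10.79 and 11.21 against 12.96 and 12.84 (-1.90 ± 0.12) and changed by -0.13 under 4OHT alone, which did not pass, and by -1.53 under withdrawal alone. The 4 that rose were Bcl2l1, Mcl1, Pim1 and Pim2. Bcl2l1, which encodes the survival protein BCL-XL, rose most, from 8.55 and 8.35 to 10.44 and 10.02 (1.78 ± 0.16, adjusted p = 2.64e-06). It changed by 1.41 under 4OHT alone. Over the alternatives Pim1 rose by 0.34 to 0.66 and Pim2 by 0.48 to 0.58, and their calls depended on single arrays.

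Myc fell furthest of its network. In the MYC and MAX network 4 of 13 genes fell and 6 rose. The 4 that fell were Myc, its relatives Mycn and Mycl, and Mxd3. Over the alternatives Mycn changed by -0.47 to -0.28 and Mycl by -0.35 to -0.16, and the calls of both depended on single arrays. Mycl also did not pass limma's test with only the 4 arrays compared (adjusted p = 0.105). Mxd1 and Mxd4, which compete with MYC for MAX, rose by 1.29 ± 0.08 and 0.84 ± 0.09, and Mlxip, a glucose-sensing relative, by 1.42 ± 0.09. Mxd3, the member of this family known from dividing cells, changed by -0.71 ± 0.14. Mxd1 read 11.05 and 11.01 with both treatments and 9.84 and 9.65 with neither, with no overlap of the groups.

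Genes for making ribosomes fell almost without exception. Of 30 measured genes of ribosome biogenesis and RNA polymerase I 29 fell and 0 rose, with a median change of -1.35. Polr1b, the second largest subunit of RNA polymerase I, read 8.38 and 8.34 against 11.04 and 11.08 (-2.70 ± 0.10, adjusted p = 8.35e-09). Rrp1b and Gnl3, nucleolar proteins of pre-ribosome assembly, changed by -2.23 ± 0.09 and -2.21 ± 0.10, and Dkc1, which modifies ribosomal RNA, by -2.14 ± 0.15. Under withdrawal alone 27 of the 30 fell, with a median of -0.65, and under 4OHT alone 0 passed, with a median of -0.12. At an unadjusted p under 0.05 5 of the 30 were lower and 0 higher under 4OHT alone. Against withdrawal alone the combination was lower in 21 of the 30 (8.17% of all genes were lower in that comparison).

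Nucleotide and polyamine synthesis showed the lowest median of the lists, -2.11, and all 27 measured genes fell. Tyms, thymidylate synthase, read 8.30 and 8.61 with both treatments and 11.24 and 11.31 with neither (-2.82 ± 0.17). Mthfd1, of folate metabolism, read 8.23 and 7.88 against 11.01 and 10.86 (-2.88 ± 0.17). The list's median was -1.17 under withdrawal alone, where 25 fell, and -0.11 under 4OHT alone, where 1 fell. Against withdrawal alone 19 of the 27 were lower. Of 18 aminoacyl-tRNA synthetases, which charge tRNA with amino acids, 16 fell, led by Mars1 (-1.11 ± 0.10) and Iars (-1.03 ± 0.09). Of 20 genes of the ATF4 and amino acid response 8 fell, among them the transporter gene Slc7a5 (-2.86 ± 0.16), Asns, asparagine synthetase (-2.56 ± 0.18), and Phgdh, of serine synthesis (-2.52 ± 0.19). In that list 2 rose, the mTOR inhibitor gene Ddit4 (1.03 ± 0.09) and Ddit3 (0.76 ± 0.11). Of 19 genes of the glycolysis list 13 fell. The 19 include Pigq, which is not a glycolysis gene and was matched to the listed Gpi1 by a shared name. Gapdh and Eno1 had no probe set of their own. Eno3, an enolase, changed by -2.15 ± 0.13 with both treatments and by -1.77 under 4OHT alone and 0.23 under withdrawal alone, while Pgk1 changed by -1.79 ± 0.16, -0.38 and -0.78 and Hk2, hexokinase 2, by -1.56 ± 0.11, -0.21 and -1.11.

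For some of these growth genes the combined fall was larger than the sum of the single changes. The interaction, the combined change minus that sum, passed limma's test in 137 genes (0.687%), 123 lower (0.617%) and 14 higher (0.0702%). For Myc the changes were -0.23 under 4OHT alone (adjusted p = 0.221), -0.80 under withdrawal alone and -3.50 under both. Its interaction was -2.47 ± 0.15 (adjusted p = 3.05e-05). On the arrays Myc read 12.63 and 12.66 with 4OHT alone, 12.10 and 12.05 with withdrawal alone and 9.31 and 9.43 with both, so the arrays of withdrawal alone lay a little below those of neither treatment and the arrays with both lay far below all others at 24 h. Srm followed the same order, with levels of 12.31 and 12.30, 11.14 and 10.90 and 8.55 and 8.71 and an interaction of -2.37 ± 0.22 (adjusted p = 0.000581). Dctd had an interaction of -2.16 ± 0.17 (adjusted p = 0.000138) and Polr1b of -1.48 ± 0.14 (adjusted p = 0.00083). Of the ribosome biogenesis list 7 of 30 passed the interaction, all lower, and of the nucleotide and polyamine list 8 of 27, all lower. Ccnd1, cyclin D1, read 8.36 and 8.32 with both treatments and 10.35 and 10.35 with neither, with changes of -0.49 under 4OHT alone and -0.59 under withdrawal alone and an interaction of -0.93 ± 0.12 (adjusted p = 0.00519). For Ccnd2 the interaction of -1.28 ± 0.27 did not pass (adjusted p = 0.0587), but passed with the experiment as a block (adjusted p = 0.00019), with an intensity trend (0.0417) and without the experiment 2 array of both treatments (-1.56, 0.0264). Vegfa, a growth factor of blood vessels, changed by -0.17 and -0.03 under the single treatments, neither of which passed, and by -1.79 ± 0.17 under both (interaction -1.59 ± 0.25, adjusted p = 0.012).

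The count of 137 depended on the arrays and on the block. With the experiment as a block 449 genes passed, 367 lower and 82 higher. Leaving out single arrays left 50 (neither, experiment 2), 54 and 62 (4OHT alone, experiments 1 and 2), 59 and 55 (withdrawal alone, experiments 1 and 2), 74 (both, experiment 2), 95 (neither, experiment 1) or 96 (both, experiment 1). Myc, Srm, Dctd, Nrp2, Polr1b, Rrp1b, Gnl3 and Ccnd1 passed the interaction in all of the alternatives run. Ppa1 did not pass it without the array of 4OHT alone (experiment 1, adjusted p = 0.0777; experiment 2, 0.0676), withdrawal alone (0.0803 and 0.0753), neither of experiment 2 (0.0882) or both of experiment 1 (0.0604). Vegfa did not pass it without the array of 4OHT alone (0.0618 and 0.0598), withdrawal alone of experiment 2 (0.0757), neither of experiment 2 (0.0572) or both of experiment 2 (0.0544).

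**Figure D4:**
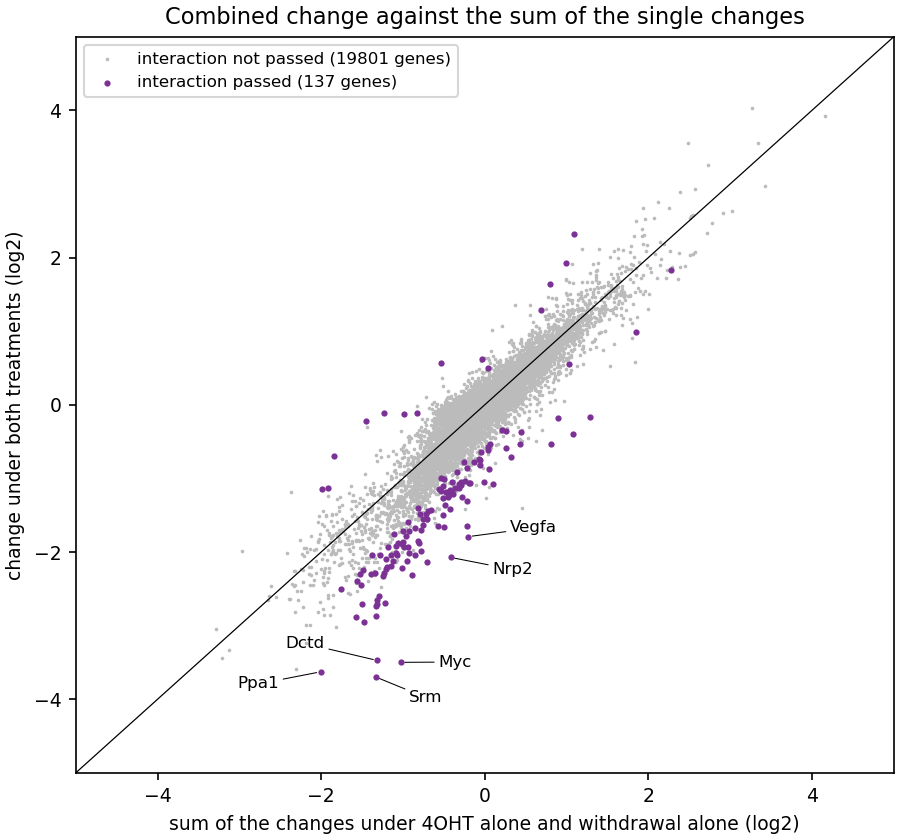
Log2 change under both treatments (y axis) against the sum of the changes under 4OHT alone and withdrawal alone (x axis) for 19938 genes, with the line of equality. Purple points are the 137 genes whose interaction passed. Myc, Srm and Dctd lie more than 2 units below the line.

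Nearly all measured genes of DNA replication and mitosis fell with both treatments and with withdrawal alone. All 35 DNA replication genes fell, with changes from -2.85 to -0.49 and a median of -1.73. Pola1, the catalytic subunit of DNA polymerase alpha, read 7.72 and 7.60 against 10.58 and 10.44 (-2.85 ± 0.20, adjusted p = 4.64e-07). Pole, of the leading strand polymerase, Lig1, which joins nicks, and Gins1, of the replicative helicase, changed by -2.75 ± 0.14, -2.58 ± 0.19 and -2.58 ± 0.18. Under 4OHT alone 0 of the 35 passed limma's test after adjustment, while 2 were lower and 0 higher by the unadjusted p at the same threshold. Of 33 genes of G2/M and mitosis 32 fell and 1 rose, with a median of -1.64. Cdk1, the mitotic kinase, read 10.13 and 9.91 with both treatments and 12.09 and 11.95 with neither (-2.0 ± 0.16, adjusted p = 1.27e-06). The condensin gene Ncapg and the spindle checkpoint kinase gene Ttk changed by -2.43 ± 0.20 and -2.26 ± 0.22. Of 16 D and E cyclins, their kinases and E2F factors 13 fell, among them Ccne1 (-2.39 ± 0.20) and Ccne2 (-2.09 ± 0.24), cyclins of S phase entry, and Ccnd3 (-0.32 ± 0.07), the cyclin D of pre-B cells.

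These lists differed in how the combination stood to withdrawal alone. DNA replication genes had a median of -1.30 under withdrawal alone, and 15 of 35 were lower still with both treatments. Over all genes 8.17% were lower and 7.10% higher with both treatments than with withdrawal alone. G2/M genes had a median of -1.76 under withdrawal alone, and against it 0 of 33 were lower and 2 higher with both in limma's test (3 lower and 8 higher at an unadjusted p under 0.05). For Cdk1 the difference between both treatments and withdrawal alone was -0.21 ± 0.16 (adjusted p = 0.527), and for Pola1 -1.01 ± 0.20 (adjusted p = 0.00354). Cdc25b, a phosphatase that activates mitotic kinases, was the G2/M gene that rose, from 9.83 and 9.51 to 10.32 and 9.94 (0.46 ± 0.14, adjusted p = 0.026), with 0.70 under 4OHT alone and -0.81 under withdrawal alone. Its rise did not pass without the experiment 1 array of both treatments (0.27, adjusted p = 0.258), without the experiment 2 array of neither (0.30) or with only the 4 arrays compared in the fit. Of 9 inhibitors of cyclin-dependent kinases and pocket proteins, brakes of the cycle, 3 rose, 1 fell and 5 did not pass, with a median change of -0.10. Cdkn1b, which encodes the inhibitor p27, read 12.13 and 11.94 with both treatments and 10.95 and 10.73 with neither (1.20 ± 0.10, adjusted p = 1.92e-06). The pocket protein genes Rb1 and Rbl2 rose by 1.16 ± 0.08 and 0.55 ± 0.10, and Rbl1 (p107), itself known from dividing cells, changed by -1.46 ± 0.13.

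**Figure D5:**
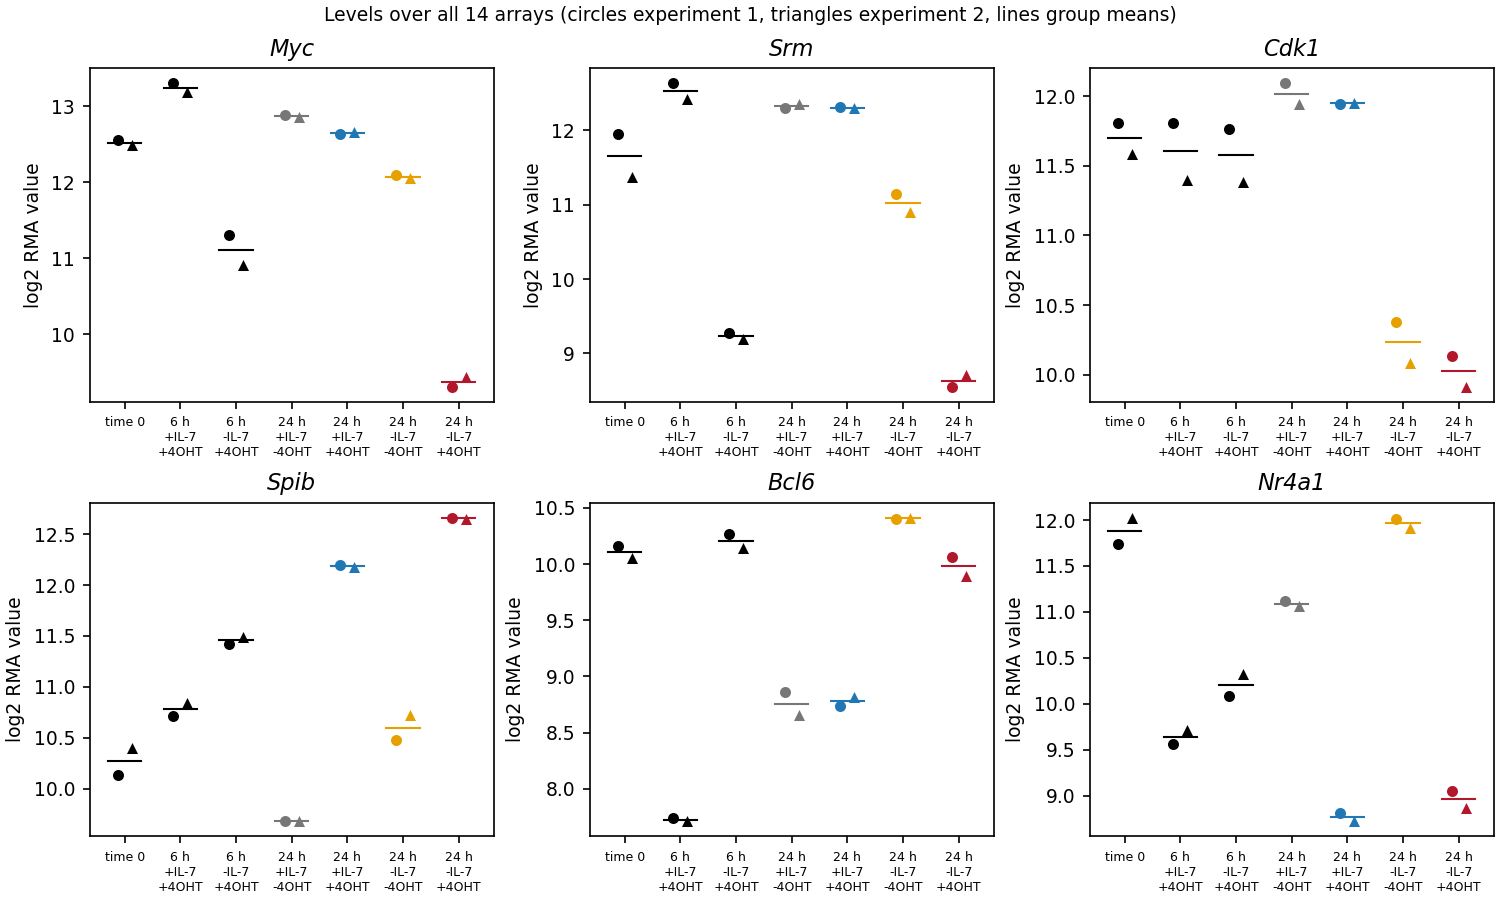
Log2 level (y axis) of 6 genes on all 14 arrays, by group along the x axis, with circles for experiment 1, triangles for experiment 2 and lines for group means. Myc and Srm are lowest on the 24 h arrays with both treatments, Cdk1 is low on the 24 h arrays without IL-7, and Spib is high on the 24 h arrays with 4OHT.

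The other time points place these levels, as a description without a test. After 6 h with both treatments Myc read 11.31 and 10.92, between its levels at time 0 (12.55 and 12.49) and at 24 h. Srm was already at 9.27 and 9.20 by 6 h. Cdk1 was still at 11.77 and 11.38 at 6 h, as at time 0 (11.81 and 11.58). Spib read 10.14 and 10.40 at time 0 and 11.43 and 11.49 after 6 h with both treatments.

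Promoters of falling replication genes are shown because E2F factors are known to act on such promoters. The 250 bases before each RefSeq start were searched on both strands in the GRCm38.p6 promoters of the tested genes, 19177 promoters in all. E2F letters (TTTGGCGC or TTTCGCGC) stood in 5 of 33 promoters of the replication list (15.15%) and in 0.91% of all, with promoters found for 28 of the 35 genes. In the other sets searched they stood in 0 to 2 promoters each, with the highest share, 2 of 16 (12.5%), in the IL-7 and STAT5 response. The 3 genes with the largest falls among those 5 were chosen after their values were seen, Pola1, Orc1, of the origin recognition complex (-2.29), and Mcm5, of the replicative helicase (-2.21). The sequences run 5′ to 3′ on the gene's strand, Pola1 at chrX:93632156-93632405 (minus strand), Orc1 at chr4:108579204-108579453 (plus strand) and Mcm5 at chr8:75109259-75109508 (plus strand), and the capitals mark the E2F letters, which begin at bases -138, -27 and -153 from the start. In Mcm5 a match on each strand overlaps, the other from base -149.
Pola1: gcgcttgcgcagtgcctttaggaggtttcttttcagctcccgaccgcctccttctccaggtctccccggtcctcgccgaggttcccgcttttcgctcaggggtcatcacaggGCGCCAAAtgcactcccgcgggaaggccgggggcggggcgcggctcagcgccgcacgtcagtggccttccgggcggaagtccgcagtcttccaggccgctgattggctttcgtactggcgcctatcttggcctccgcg
Orc1: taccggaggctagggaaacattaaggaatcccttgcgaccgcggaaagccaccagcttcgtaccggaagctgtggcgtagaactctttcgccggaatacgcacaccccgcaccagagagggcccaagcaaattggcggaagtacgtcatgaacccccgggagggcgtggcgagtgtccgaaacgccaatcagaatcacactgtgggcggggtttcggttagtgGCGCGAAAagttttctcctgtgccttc
Mcm5: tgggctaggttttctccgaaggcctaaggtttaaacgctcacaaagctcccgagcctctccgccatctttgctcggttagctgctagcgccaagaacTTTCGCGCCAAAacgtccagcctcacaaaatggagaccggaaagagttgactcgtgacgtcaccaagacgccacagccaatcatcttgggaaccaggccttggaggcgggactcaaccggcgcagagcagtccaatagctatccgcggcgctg

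Letters of the Ikaros core site (TGGGAA) stood in 13 of the same 33 promoters (39.39%), and in 20.9% of all promoters. They stood in 1 of 14 promoters of the 12 largest rises (7.14%), 2 of 9 of the 12 largest falls (22.22%) and 4 of 7 of the 6 largest interactions (57.14%). Promoters were found for 10 of the 12 rises and 7 of the 12 falls, and none were found for Myc, Srm and Ccnd2. The promoters with a match were alternative starts of few genes. Those of the falls belonged to 1 gene, Dctd, and those of the interactions to 2 genes, Dctd and Vegfa, of the 4 with a promoter. Of the other lists searched, they stood in 4 of 27 promoters of G2/M (14.81%), 7 of 27 of ribosome biogenesis (25.93%), 5 of 29 of nucleotide and polyamine synthesis (17.24%), 6 of 23 of FoxO (26.09%), 1 of 16 of the STAT5 response list (6.25%) and 4 of 35 of B lineage factors (11.43%). The MYC E-box (CACGTG) stood in 5 of the 33 (15.15%), in 5 of 29 promoters of the nucleotide and polyamine list (17.24%), in 1 of 27 of the ribosome list (3.7%), in 6.25% to 14.29% of the other sets searched and in 6.99% of all. Ppa1, at chr10:61648371-61648620 (plus strand), is shown for its E-box and Rubcnl, at chr14:75015777-75016026 (plus strand), for its Ikaros core, with those letters in capitals from bases -140 and -152. STAT and FoxO letters were searched too. STAT letters (TTCNNNGAA) stood in 8 of 35 promoters of B lineage factors (22.86%) and 1 of 16 of the STAT5 response list (6.25%). They stood in 0% to 10.34% of the other sets and 6.55% of all. FoxO letters (GTAAACA) stood in 3 of 23 of the FoxO list (13.04%) and 2 of 16 of the STAT5 response list (12.5%). They stood in 0% to 3.7% of the other sets and 2.67% of all. A match describes letters only and is not a bound site.
Ppa1: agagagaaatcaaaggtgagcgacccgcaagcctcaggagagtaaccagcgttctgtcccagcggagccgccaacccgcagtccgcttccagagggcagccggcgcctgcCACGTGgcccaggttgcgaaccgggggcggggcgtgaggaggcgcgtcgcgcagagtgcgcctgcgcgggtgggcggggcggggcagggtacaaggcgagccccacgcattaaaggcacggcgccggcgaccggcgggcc
Rubcnl: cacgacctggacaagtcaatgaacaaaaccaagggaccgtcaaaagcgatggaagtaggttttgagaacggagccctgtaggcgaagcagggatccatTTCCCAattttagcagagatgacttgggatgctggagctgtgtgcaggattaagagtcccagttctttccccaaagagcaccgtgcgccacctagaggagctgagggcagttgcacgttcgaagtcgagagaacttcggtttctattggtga

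Among factors of the B lineage 19 of 29 genes rose and 4 fell, with a median of 0.40. Pou2f2, an octamer-binding factor of B cells, read 9.48 and 9.44 with both treatments and 7.37 and 7.69 with neither (1.93 ± 0.10, adjusted p = 7.87e-08). Foxo1, which drives the pre-B transition, read 11.42 and 11.17 against 9.66 and 9.39 (1.77 ± 0.12, adjusted p = 5.03e-07). Spi1, which encodes PU.1, the relative of Spi-B, rose by 1.25 ± 0.10. Bcl6, a repressor raised in small pre-B cells, read 10.06 and 9.90 against 8.86 and 8.66 (1.22 ± 0.09, adjusted p = 5.68e-07). Unlike Spib it changed by 0.02 under 4OHT alone (adjusted p = 0.921) and by 1.65 under withdrawal alone (adjusted p = 2.28e-06), and the combination lay below withdrawal alone by 0.43 ± 0.09 (adjusted p = 0.00489). Bcl11a and Lef1, factors of early B cell precursors, changed by -0.86 ± 0.13 and -0.50 ± 0.09.

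Genes of the pre-B cell receptor and its signalling moved in both directions by part of the pathway. Of 7 genes of the receptor 3 rose and 3 fell. The surrogate light chain genes Vpreb1 and Vpreb2 both fell. Vpreb1 read 9.79 and 9.97 with both treatments and 10.96 and 10.89 with neither (-1.04 ± 0.08), and Vpreb2 8.45 and 8.58 against 9.57 and 9.44 (-0.99 ± 0.08). These 2 genes are near-identical, and whether their probes tell them apart was not tested. Igll1, the other surrogate chain, changed by -0.29 ± 0.07 (adjusted p = 0.00371), which did not pass after quantile normalization (-0.15, adjusted p = 0.0937) or with only the 4 arrays compared. The signalling chains Cd79a and Cd79b rose by 1.04 ± 0.09 and 0.81 ± 0.06. Below the receptor 13 of 16 signalling genes rose and 1 fell, with medians of 0.52 with both treatments, 0.28 with 4OHT alone and 0.29 with withdrawal alone. The kinase genes Syk, Zap70, Fyn and Prkcb rose by 1.30 ± 0.10, 1.49 ± 0.10, 1.37 ± 0.10 and 1.5 ± 0.11. Syk read 11.43 and 11.39 against 10.12 and 10.10. Rasgrp3, an activator of Ras, changed by -0.70 ± 0.11 with both treatments, by -1.48 with 4OHT alone and by 0.30 with withdrawal alone.

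Markers of later B cells rose at 9 of 19 genes and fell at 1. Fcgr2b, an inhibitory receptor for IgG, read 11.40 and 11.24 with both treatments and 9.48 and 8.97 with neither (2.09 ± 0.17). H2-Ob and H2-Oa, which form a modulator of peptide loading on MHC class II, rose by 2.03 ± 0.15 and 1.81 ± 0.09. They were the 2 of 9 class II genes that rose, and 3 of the 9 lay above the median of all values in either group. Tnfrsf13c, the receptor for the survival factor BAFF, read 11.03 and 11.26 against 9.51 and 9.20 (1.79 ± 0.13), and Btla, an inhibitory receptor, rose by 1.65 ± 0.19. The recombinase genes that open light chain rearrangement were not among the genes that changed. Rag1 read 5.90 and 5.96 against 5.81 and 5.80 and Rag2 4.49 and 4.55 against 4.52 and 4.88, both below the median of all values, and neither passed (adjusted p = 0.236 and 0.247). Lig4 and Xrcc4, which join the broken ends, rose by 1.73 ± 0.12 and 1.0 ± 0.12. The subunits of the Ku complex went opposite ways, Xrcc6 by 0.76 ± 0.08 and Xrcc5 by -1.09 ± 0.09. Il2ra, a surface marker of small pre-B cells, read 5.37 and 5.73 against 5.34 and 5.47 and did not pass (adjusted p = 0.367). Kit, a receptor of earlier precursors, read 6.60 and 6.60 against 6.64 and 6.90 and did not pass (adjusted p = 0.224). Of 14 markers of pro-B and large pre-B cells 4 fell, 2 rose and 8 did not pass, with a median change of -0.15. Spn, which encodes CD43 of large pre-B cells, fell by 1.30 ± 0.08, while Cd93, a surface receptor of early B cells, rose from 12.89 and 12.84 to 13.42 and 13.37 (0.53 ± 0.07), as did Il7r. The constant regions of the light chains were not analysed here.

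Of 22 FoxO factors and growth arrest genes 21 rose and 1 fell, with a median of 1.0. Txnip, an inhibitor of glucose uptake, read 12.68 and 12.84 with both treatments and 11.13 and 11.14 with neither (1.62 ± 0.12). Gadd45a, a stress response gene, and Btg2, an antiproliferative gene, rose by 1.59 ± 0.17 and 1.33 ± 0.09. The list's median was 0.47 under 4OHT alone, where 11 rose, and 0.40 under withdrawal alone, where 15 rose. For Foxo1 itself the changes were 0.82, 0.54 and 1.77 with 4OHT, withdrawal and both. Of 13 genes of NF-kappaB and its response 7 rose, among them Rel, a subunit of B cells (1.56 ± 0.10), and the inhibitor genes Nfkbia (1.42 ± 0.09) and Nfkbie (1.0 ± 0.11), and Tnfaip3, another inhibitor, changed by -0.49 ± 0.10. In the BCL2 family 6 of 14 rose and 4 fell. Over all genes 18.1% rose and 15.4% fell, and of the 10816 above the median 3570 rose and 2994 fell. Bmf and Bcl2l11 (BIM), which promote cell death, rose by 1.53 ± 0.11 and 0.59 ± 0.07, and Bcl2l1 and Mcl1, which oppose it, by 1.78 ± 0.16 and 0.46 ± 0.07.

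Receptors of migration and adhesion changed gene by gene. Of 13 chemokine and sphingosine phosphate receptors 3 rose and 3 fell, and over all genes 18.1% rose and 15.4% fell. Beside S1pr1, S1pr4 rose by 1.13 ± 0.10, while S1pr2 and S1pr3 changed by -0.45 ± 0.10 and -0.44 ± 0.08. Ccr2, a chemokine receptor known from monocytes, read 5.39 and 5.75 with both treatments and 7.46 and 7.25 with neither (-1.78 ± 0.13), with -1.67 under 4OHT alone. Of 22 integrin and adhesion genes 7 rose and 8 fell. Of the 10816 genes above the median of all values 3570 rose and 2994 fell. Itga4, which binds VCAM1 on stroma, rose by 1.53 ± 0.11, and Itga5, a fibronectin receptor chain, fell by 1.41 ± 0.11. Itga4 read 11.35 and 11.45 against 9.86 and 9.88 and Itga5 8.58 and 8.60 against 10.16 and 9.84. Ctnnd1, p120 catenin, and the tetraspanin gene Cd9 changed by -1.33 ± 0.08 and -1.55 ± 0.10, with -1.05 and -1.13 under 4OHT alone. Cd44, a hyaluronan receptor, fell by 1.08 ± 0.12 and changed by 0.03 under 4OHT alone and -0.63 under withdrawal alone.

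In several genes the single treatments acted in opposite directions, and the combination is shown beside them. Nr4a1, an orphan nuclear receptor induced by antigen receptor signals, read 8.81 and 8.72 with 4OHT alone, 12.01 and 11.92 with withdrawal alone, 9.05 and 8.87 with both and 11.12 and 11.06 with neither. Its changes were -2.33 ± 0.11, 0.87 ± 0.11 and -2.13 ± 0.11 in that order (adjusted p = 3.67e-07, 0.000197 and 7.21e-08), so the arrays with both lay near those with 4OHT alone. Tnfsf10, the death ligand TRAIL and the FoxO list member that fell, changed by -1.63, 0.82 and -1.85 ± 0.12. Lef1 changed by -0.70, 0.63 and -0.50 ± 0.09. Hes1, a Notch target, changed by -1.18, 0.36, which did not pass, and -1.20 ± 0.12. Nrp2, a neuropilin, changed by -1.16, 0.74 and -2.07 ± 0.08, with an interaction of -1.66 ± 0.11 (adjusted p = 4.62e-05). Here the arrays with both treatments were lower than those of either single treatment. Vpreb1 changed by -0.59, 0.29 and -1.04 (interaction -0.75 ± 0.11, adjusted p = 0.00756). That interaction did not pass without the experiment 2 array of withdrawal alone (adjusted p = 0.0511).

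The guanylate-binding protein genes, interferon-inducible GTPases, had a median change above 0 under withdrawal alone and below 0 under 4OHT alone. Under 4OHT alone 3 of 7 fell and 0 rose in limma's test (4 lower and 1 higher at an unadjusted p under 0.05). Under withdrawal alone 4 rose and 2 fell. Of the 7 genes 0 rose and 4 fell under both treatments in limma's test (2 higher at an unadjusted p under 0.05), with medians of -0.41 with both, -0.44 with 4OHT alone and 1.73 with withdrawal alone. With the experiment as a block 2 rose and 4 fell. Gbp11 read 7.17 and 6.82 with 4OHT alone, 10.28 and 10.64 with withdrawal alone, 7.91 and 7.66 with both and 8.28 and 8.37 with neither. Against withdrawal alone the combination was lower by 2.67 ± 0.15 (adjusted p = 2.39e-07), and against neither it changed by -0.54 ± 0.15 (adjusted p = 0.0134). The latter did not pass without the experiment 2 array of both treatments (-0.41) or of neither (-0.49). Gbp7, by contrast, fell under both treatments (-1.20 ± 0.14), 4OHT alone (-0.59) and withdrawal alone (-0.81). Members of this family are similar in sequence, and cross-reading of their probes was not tested.

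The list of other interferon response genes differed between the experiments. Of 21 genes 2 rose and 2 fell, and 6 rose and 2 fell with the experiment as a block. The mean level of the list was 7.43 and 8.21 in experiments 1 and 2 with both treatments and 7.48 and 7.76 with neither, and the median change was -0.05 in experiment 1 and 0.42 in experiment 2. Ddx58, which encodes the RNA sensor RIG-I, read 10.15 and 10.69 against 8.83 and 9.22 (1.39 ± 0.23, adjusted p = 0.000431). Ifih1, the sensor MDA5, changed by -0.72 ± 0.14, with -0.79 under 4OHT alone. Sp100 rose most on the array of experiment 2 with both treatments, and the part of the experiment's interferon level in its values was not tested.

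Lists of markers of other blood and stromal cells had like mean levels in both groups. Of 12 natural killer cell markers 1 rose and 2 fell, and 2 of the 12 lay above the median of all values in either group. Their mean level was 5.75 and 5.72 with both treatments and 5.67 and 5.64 with neither. The riser was Klrb1c, at 7.84 and 6.64 against 5.18 and 5.06 (2.12 ± 0.33), and Nkg7, a granule protein, fell (-1.19 ± 0.17). The higher Klrb1c array was that of experiment 1, as for Klrb1. Of 12 T cell markers 2 rose and 1 fell, led by Zap70, which pre-B cells also use. Of 15 myeloid markers 2 rose and 0 fell, of 9 erythroid and megakaryocyte markers 0 rose and 0 fell, and of 12 stromal markers 0 rose and 1 fell. At an unadjusted p under 0.05 1 myeloid marker was lower, 1 erythroid marker higher and 1 lower, and 0 stromal markers higher. The mean levels with both treatments were 6.78 and 6.88 for the T cell list, 6.43 and 6.45 for the myeloid, 6.38 and 6.44 for the erythroid and 6.60 and 6.74 for the stromal list. With neither they were 6.75 and 6.81, 6.34 and 6.48, 6.36 and 6.47, and 6.66 and 6.83.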

How the data were processed

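RNA (150 ng) of each sample was measured on 1 Affymetrix mouse gene array. The authors deposited log2 levels made with RMA in Affymetrix Expression Console 1.1, per the submitters' processing notes. Of 35556 probe sets, 21789 had 1 gene symbol in the platform annotation, 1621 several, and 12146 were not listed. The probe set with the highest mean stood for each of 19938 genes (999 had several).

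A mean per group was fitted over all 14 arrays (7 groups of 2) with limma 3.58.1 in R 4.3.3, with no block, with Benjamini-Hochberg adjustment over all genes and a threshold of 0.05. Residual degrees of freedom were 7, plus 4.83 from the prior. The code was tested on simulated data. For a single gene an exact permutation test of 2 arrays against 2 cannot go below p = 0.333.

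Experiment numbers pair the arrays: the labels name independent experiments, and deviations from group means correlated in all 21 pairs of groups (0.124 to 0.631; 0.575 for the groups compared). A fit with the experiment as a block, other settings and leaving out arrays were alternatives.

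Named were the 12 largest rises and 12 largest falls. These genes passed, moved alike in both experiments and, in the higher group, exceeded the median of all values. Predicted genes, immunoglobulin variable segments, olfactory and vomeronasal receptors, microRNAs and small nucleolar RNAs were left out. Also named were the 6 largest interactions under the same rules, up to 4 passing genes per direction of each list, and fixed genes of the pathway. The members and lists were chosen with earlier results of these data known.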

Additional observations from a re-analysis of the deposited data

Results flagged for a closer look

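The interaction at 24 h asks whether the change under 4OHT differed between cells without and with IL-7, and it passed limma's test in 137 genes. It was -2.47 for Myc, -2.37 for Srm, -2.16 for Dctd, -1.66 for Nrp2 and -1.48 for Polr1b. Of the nucleolar genes it was -1.02 for Rrp1b and -1.02 for Gnl3, and for the cyclin gene Ccnd1 it was -0.93. These 8 interactions passed under every alternative run.

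Other named genes passed the interaction in the fit of all arrays but not after some single arrays were left out. These were Ppa1 (-1.62, adjusted p up to 0.0882), Vegfa (-1.59, up to 0.0757), Gbp11 (-1.35, up to 0.0705) and the folate enzyme gene Mthfd1 (-1.30, up to 0.173). The chaperone gene Hsph1 (-1.07, up to 0.0755), the desaturase gene Fads2 (-1.05, up to 0.222), Tnfsf10 (-1.03, up to 0.088) and Vpreb1 (-0.75, up to 0.0511) were among them too.

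Probe sets with no or several gene symbols were not used for the genes above. Of 13767 such probe sets 3483 passed for both treatments against neither (25.3%), 2441 higher and 1042 lower. Changes of at least 2-fold were found in 974 higher and 161 lower, so here large changes were mostly rises, unlike in the genes above.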

How the results depend on the processing

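Both treatments against neither gave 6690 genes, 5752 to 5988 with single arrays left out, 5662 with only the 4 arrays compared, 6586 with the 8 arrays at 24 h, 6564 without dim genes, 7850 with the experiment as a block and 7723 after renewed quantile normalization, which moved the median change from -0.0086 to -0.085. The experiment block, applied because the numbers pair the arrays, gave 2184 genes higher than with withdrawal alone and an interaction in 449 genes (82 higher, 367 lower). Beside 14 genes with a higher interaction, a fit with an intensity trend gave 22 and quantile normalization 35. Leaving out single arrays gave 3257 to 4014 genes against 4OHT alone (1595 to 1809 higher, 1662 to 2205 lower), 1841 to 2282 against withdrawal alone (753 to 1146 higher, 1045 to 1374 lower) and 50 to 96 interactions (4 to 12 higher, 43 to 89 lower); the cause was not tested beyond the smaller number of arrays. Of 201 named genes, 0 lost their call with the block, 3 with quantile normalization, 10 with the 4 arrays, 5 with the 8 and 12 to 20 when 1 of the 4 arrays compared was left out. Il2ra, which did not pass, lay between -0.0313 and 0.3242 with single arrays left out, reversed without the experiment 2 array of both treatments. Signal over background was not given with the values.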

Other observations

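Many genes of protein folding and cholesterol synthesis and some of fatty acid synthesis fell with both treatments. Of 19 cholesterol synthesis genes 11 fell, 1 rose and 7 did not pass, against 12 lower and 1 higher under withdrawal alone. Idi1, an isomerase of the isoprenoid pathway, read 9.56 and 9.09 with both treatments and 11.17 and 10.97 with neither (-1.75 ± 0.16), and Sqle, squalene epoxidase, 8.95 and 8.82 against 10.64 and 10.36 (-1.62 ± 0.13). The exception was Tm7sf2, a sterol reductase, which rose by 0.60 ± 0.09. Of 12 fatty acid synthesis genes 6 fell, 5 did not pass and 1, Acss2, rose (0.50 ± 0.16, adjusted p = 0.0299). Acss2 did not pass with only the 4 or the 8 arrays (adjusted p = 0.108 and 0.0633), nor without the experiment 2 array of neither treatment (0.22, adjusted p = 0.338) or the experiment 1 array of both (0.34, adjusted p = 0.233). Acaca, acetyl-CoA carboxylase, changed by -1.65 ± 0.10 with both treatments, -0.23 with 4OHT alone, which did not pass, and -0.92 with withdrawal alone. Of 20 heat shock and chaperonin genes 15 fell and 0 rose, also at an unadjusted p under 0.05 in limma's test. The mitochondrial chaperones Hspd1 and Hspa9 changed by -1.99 ± 0.13 and -1.26 ± 0.09, and Cct3, of the cytosolic chaperonin, by -1.32 ± 0.11.

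Lysosome genes and markers of secretory B cells included large rises. Of 24 autophagy and lysosome genes 13 rose and 2 fell. Neu1, a lysosomal sialidase, read 11.44 and 11.24 against 9.80 and 9.69 (1.60 ± 0.11), and Tfeb, a factor that drives lysosome genes, 10.43 and 10.34 against 9.16 and 9.08 (1.26 ± 0.07). Tfeb rose by 0.86 under 4OHT alone and changed by 0.21 under withdrawal alone, which did not pass. Of 9 plasma cell markers 3 rose, 1 fell and 5 did not pass, among the last Prdm1, Xbp1 and Jchain. The smallest of the 3 rises was that of Irf4 (0.29 to 0.43 over the alternatives), and its call depended on single arrays. Mzb1, a chaperone of immunoglobulin, read 11.77 and 11.66 with both treatments and 9.73 and 9.75 with neither (1.98 ± 0.07), and Derl3, of the disposal of misfolded proteins, rose by 1.69 ± 0.12. Sdc1, the surface marker of plasma cells, went the other way, from 8.96 and 9.12 to 7.84 and 7.87 (-1.19 ± 0.11).

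Of 16 p53 targets 10 rose and 3 fell. Ccng1, Sesn1, Gadd45a and Btg2 are counted both here and in the FoxO list. Sesn1, an inhibitor of growth signalling, rose by 1.21 ± 0.14 and the kinase gene Plk2 by 0.74 ± 0.09, while Phlda3 and Aen, both known to act in p53-driven death, changed by -0.71 ± 0.11 and -0.47 ± 0.08. Of 20 immediate early genes 5 rose and 5 fell, and over all genes 18.1% rose and 15.4% fell. Jund, an AP-1 factor, rose by 1.26 ± 0.10, and Nr4a2 and Ier2 changed by -1.11 ± 0.11 and -0.82 ± 0.10.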
